A study of Homo sapiens with 8 samples.

Results

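RNA sequencing of A375 human melanoma cells with and without serum was used to follow 42 genes, chosen by name, of which 25 encode the glucose and lactate transporters, enzymes and enzyme regulators of glycolysis and 17 encode oxygen sensors, hypoxia-inducible factors and other hypoxia-inducible products. All 42 symbols matched 1 identifier each among the 58051 genes in the count tables. The libraries came from 4 lines, WT1 to WT4, each grown from 1 cell of A375, an established melanoma line, so that n = 4 stands for 4 clones of 1 cell line and not for separate tumors. Each line gave 1 library from cells kept for 12 h in DMEM with 10% fetal bovine serum (serum) and 1 from cells kept for 12 h in DMEM without it (serum-free), and the labels give no further agent. The titles call all 4 lines WT without naming a gene, and the study sets *NECTIN1* wild-type against *NECTIN1*-deficient A375 cells. *NECTIN1*, a cell adhesion gene, stood at 50.8 to 67.4 CPM (reads per 1000000 reads on genes, after scaling) with serum and 44.9 to 48.6 CPM without. The deposited counts of WT4 carry another name, so that its identity rests on the titles, and its libraries stood apart. Between WT4 and another line in the same medium the counts differed by a chi-square of 48.5 to 102 per gene, against 18.7 to 39.3 between the other lines. This measure grows with sequencing depth. The 102 was between WT2 and WT4 without serum, the deepest serum-free libraries (73341551 and 53371498 reads on genes). The comparison asks which transcripts change when serum is withdrawn. Between 29759279 and 67101005 reads fell on genes in the serum libraries and between 37847737 and 73341551 in the serum-free libraries. In the WT1 and WT2 serum libraries 22.7% and 16.8% of the tallied reads had aligned to more than 1 place, against 5.73% to 10.1% in the other libraries, so values of WT3 and WT4 are given on their own where they bear on a result. Of the melanocyte lineage genes, *MITF* stood at 30.1 to 44.2 CPM and *S100B* at 13.6 to 34.9 CPM, whereas *PMEL* stayed below 1 CPM in every library, *TYR* was at 0 to 0.0524 CPM and *SOX10*, which lies within the span of *POLR2F*, was listed at 0. The leukocyte marker *PTPRC* did not exceed 0.0514 CPM and the epithelial marker *EPCAM* did not exceed 0.166 CPM. Among other markers of cell types outside the lineage, the keratinocyte gene *KRT14* (11.6 to 21 CPM) and the fibroblast gene *LUM* (2.53 to 7.1 CPM) were above 1 CPM in all 8 libraries, *COL1A1* reached 2.25 CPM, *DCN* 3.95 CPM and the leukocyte gene *CD14* 0.853 CPM. *KRT14* averaged 17.2 CPM with serum and 15.4 CPM without, and *LUM* 4.56 and 3.62 CPM. Other genes of the same lists averaged higher without serum: *DCN* (1.04 and 1.94 CPM), *COL1A1* (1.43 and 1.61 CPM) and *KRT5* (0.326 and 0.559 CPM). The part of these genes in the results was not tested. CPM values are relative, so a change in the total RNA per cell is not seen in them. Less RNA of a gene in each cell cannot be told apart from fewer cells that express it.

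Glycolysis converts glucose to pyruvate in the cytosol. Tumor cells commonly reduce that pyruvate to lactate, which leaves through monocarboxylate transporters. Several steps can be run by alternative isoenzymes from different genes, and pyruvate dehydrogenase kinases hold pyruvate back from mitochondria. The oxygen-labile alpha subunits *HIF1A* and *EPAS1* are marked for destruction by the EGLN prolyl hydroxylases while oxygen is present, and when stable they bind a short DNA core in the promoters of glycolytic and other hypoxia-inducible genes. That control acts mainly on the protein, so the transcript of *HIF1A* does not report its activity. Growth factors and MYC, which binds the E-box CACGTG, also drive many glycolytic genes.

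Promoter windows are shown for 3 members that fell without serum and 2 that rose, so that the letters of the hypoxia response core can be seen beside the directions reported here. RefSeq windows on GRCh38.p14, from 250 bases before to 50 after an annotated start, were found for 36 of the 42 members, 66 windows in all. The cores searched, on both strands, were ACGTG and GCGTG, and each match is printed in capitals. An ACGTG that is preceded by C makes the E-box CACGTG, which reads the same on both strands and so counts as 2 matches of ACGTG.
*LDHA* (chr11:18394313-18394612, plus strand): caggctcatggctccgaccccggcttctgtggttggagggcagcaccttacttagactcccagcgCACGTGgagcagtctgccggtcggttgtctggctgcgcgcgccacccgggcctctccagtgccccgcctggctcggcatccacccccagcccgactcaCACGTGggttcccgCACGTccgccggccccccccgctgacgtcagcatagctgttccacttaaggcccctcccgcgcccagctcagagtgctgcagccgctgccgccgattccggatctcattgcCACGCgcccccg
*PGK1* (chrX:78103998-78104297, plus strand): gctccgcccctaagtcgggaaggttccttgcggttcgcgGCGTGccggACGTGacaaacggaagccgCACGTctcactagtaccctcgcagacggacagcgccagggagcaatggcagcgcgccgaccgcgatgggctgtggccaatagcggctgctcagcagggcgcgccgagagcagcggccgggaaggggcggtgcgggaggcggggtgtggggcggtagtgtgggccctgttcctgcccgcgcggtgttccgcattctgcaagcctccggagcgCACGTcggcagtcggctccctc
*BNIP3* (chr10:131981874-131982173, minus strand): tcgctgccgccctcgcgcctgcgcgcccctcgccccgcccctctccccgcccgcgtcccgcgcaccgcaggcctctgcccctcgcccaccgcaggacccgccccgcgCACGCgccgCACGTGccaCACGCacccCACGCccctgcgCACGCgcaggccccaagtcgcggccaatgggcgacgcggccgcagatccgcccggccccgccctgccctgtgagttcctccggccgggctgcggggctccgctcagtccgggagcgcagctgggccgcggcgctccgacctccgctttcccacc
*KDM3A* (chr2:86441121-86441420, plus strand): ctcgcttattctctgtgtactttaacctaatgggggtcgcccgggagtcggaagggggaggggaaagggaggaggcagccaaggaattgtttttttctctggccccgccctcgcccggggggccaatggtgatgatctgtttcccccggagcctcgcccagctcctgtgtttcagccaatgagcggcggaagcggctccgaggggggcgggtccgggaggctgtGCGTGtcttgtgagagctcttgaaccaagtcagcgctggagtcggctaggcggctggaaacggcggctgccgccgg
*MXI1* (chr10:110209981-110210280, plus strand): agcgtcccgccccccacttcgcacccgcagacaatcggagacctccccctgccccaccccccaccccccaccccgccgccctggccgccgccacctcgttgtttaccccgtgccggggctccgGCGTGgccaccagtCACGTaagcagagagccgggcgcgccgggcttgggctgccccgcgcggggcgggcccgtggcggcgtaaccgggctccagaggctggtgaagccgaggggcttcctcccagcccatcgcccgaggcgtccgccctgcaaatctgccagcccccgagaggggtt
The *LDHA* and *BNIP3* windows each held 6 matches, the *PGK1* window 4, the *MXI1* window 2 and the *KDM3A* window 1. *MXI1* has 3 windows, of which the others held 0 and 2 matches. *LDHA* and *KDM3A* have 2 each, and the window not shown held 1 match in each gene. ACGTG stood in 19 of the 49 glycolysis windows (38.8%) and in 6 of the 17 windows of the other members (35.3%), against 21.4% of all 35116 windows. GCGTG stood in 40.8% and 52.9% of them, against 36.5% of all windows, and CACGTG in 12.2% and 11.8%, against 7.26%. The comparison with all windows was not matched for base composition or for non-coding genes. Counted by gene, with any window, 1 or both cores were found in 7 of the 8 members that were lower without serum and had a window, in 3 of the 3 that were higher and in 21 of the 23 that were tested and passed in neither direction, against 52.4% of all 27305 genes with a window. The members had more windows per gene, 66 for 36 members against 35116 for 27305 genes. More windows give a gene more places for a match, and the by-gene shares were not matched for this. The letters were found in members of either direction.

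Without serum, 7 of the 25 glycolysis genes fell and 1 rose, and 3 of the other 17 members fell while 4 rose. *PGAM1*, *LDHA*, *PDK1*, *SLC16A1*, *PGK1*, *PFKP* and *HK2* were the glycolysis genes that fell, to between 0.673 and 0.862 of their level with serum, and *PFKL* rose 1.33-fold. *VEGFA*, *HIF1A* and *BNIP3* fell, and *NDRG1*, *MXI1*, *KDM3A* and *BNIP3L* rose. These calls are at an adjusted p of 0.05 in edgeR's quasi-likelihood fit over all 17671 genes tested, in which 14.0% of all genes were lower and 11.1% higher without serum. The share of glycolysis genes that fell was 28% and the share that rose was 4%. The median log2 fold change was -0.06 over the 25 glycolysis genes and -0.03 over the 15 other members that were tested, against 0.033 over all genes. *CA9* and *CA12* were too low to be tested. When each line was compared with itself (the line as a block), 10 glycolysis genes were lower and 4 higher, and 5 and 4 of the other members, against a background of 22.4% of all genes lower and 23.2% higher. The genes added by the block over the unblocked fit to all libraries were *SLC2A1*, *TPI1* and *LDHB* (lower), *PFKFB3*, *PFKFB4* and *SLC16A3* (higher), and *ADM* and *P4HA1* (lower). Without the block, dropping line WT4 also brought past the threshold *SLC2A1* (edgeR adjusted p = 0.0196), *PFKFB4* (0.0317), *LDHB* (0.0303), *SLC16A3* (0.0263) and *P4HA1* (0.0406), and dropping the WT4 serum library alone did so for *PKM* (higher, 0.0378), *LDHB* (0.0189) and *P4HA1* (0.0237).

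**Figure D1:**
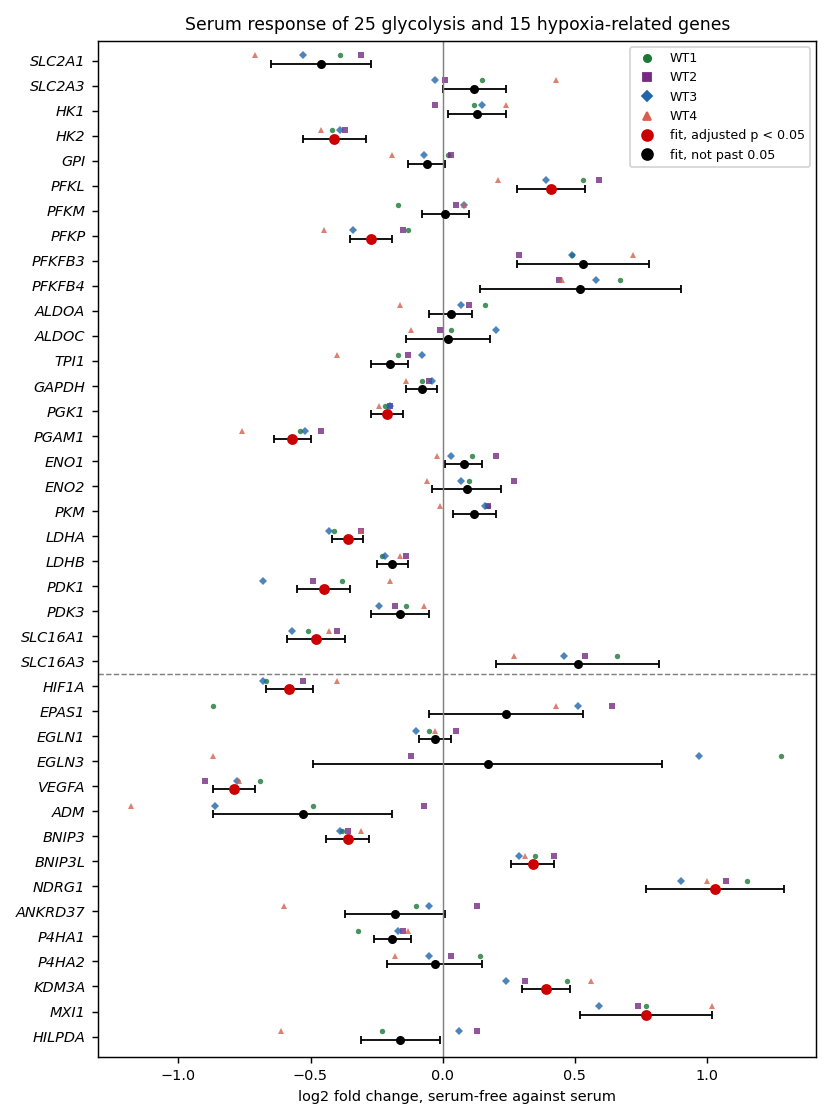
Log2 fold change of serum-free against serum for the 25 glycolysis genes (above the dashed line) and the 15 tested hypoxia-related genes (below it). Large points with bars are the edgeR estimates ± SE, red where the adjusted p was below 0.05, and small symbols are the log2 differences within each line. *PGAM1*, *LDHA*, *HIF1A* and *VEGFA* lie left of 0 in all 4 lines and *NDRG1*, *MXI1*, *KDM3A* and *BNIP3L* lie right of it.

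The levels along the pathway spanned more than 3 orders of magnitude, and the genes that fell were not the most abundant ones. On a scale per length (RPKM, the CPM divided by the kilobases of merged exons), *GAPDH* stood at 1258 ± 66.1 with serum (SD, n = 4), rank 6 among the 17425 expressed genes with a length. *ENO1* followed at 677 ± 46.7, *ALDOA* at 382 ± 47 and *PKM* at 299 ± 31. The last pair was barely apart in its SDs, and *TPI1* (268 ± 23.3), *LDHB* (253 ± 15.7) and *PGAM1* (235 ± 11.7) were next, with overlapping spreads. *PDK3* (0.787 ± 0.067) and *SLC16A3* (0.885 ± 0.264) were the lowest. The order within these groups depended on the length used: with the longest transcript in place of merged exons *PKM* (850) stood above *ALDOA* (578), *LDHA* (476) above *TPI1* (410) and *PGAM1* (331), and *SLC16A3* (1.69) above *PDK1* (1.49). With serum, 22 of the 25 glycolysis genes but only 11 of the 17 other members were above the median of expressed genes, 2.75 RPKM. None of the 4 most abundant genes passed the unblocked or blocked test on all libraries, with log2 fold changes between -0.08 (*GAPDH*) and 0.12 (*PKM*), although *GAPDH* was called lower once the blocked fit was corrected for GC content (-0.19, adjusted p = 5.79e-04). Their part of the summed glycolysis RPKM was 64.4% to 67.4% with serum and 68.6% to 70.8% without, so the ranges did not meet. The summed CPM of the 25 genes was 16701 ± 835 with serum and 16068 ± 320 without, and these ranges overlapped. Their summed RPKM was 3991 ± 197 with serum and 3767 ± 59.6 without. On that scale the ranges did not meet (3855 to 4279 and 3686 to 3814).

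**Figure D2:**
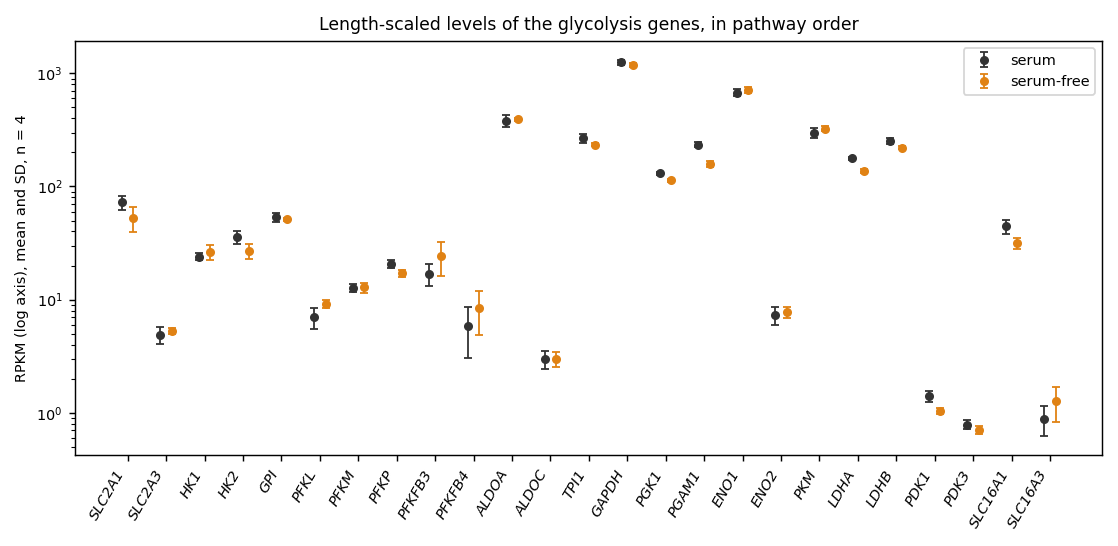
RPKM (log axis) of the 25 glycolysis genes in pathway order, from uptake to lactate export, with serum (dark) and without (orange). Points are means over 4 lines and bars are SDs. *GAPDH* is highest at 1258 RPKM with serum, and *PGAM1* and *LDHA* show the serum-free point below the serum point with no contact of the bars.

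Of the transporter and hexokinase genes that bring glucose in and trap it, *HK2* fell without serum and *SLC2A1* was lower once lines were compared with themselves. *HK2*, the hexokinase most often induced in tumors, stood at 217, 191, 250 and 188 CPM with serum in WT1 to WT4 and at 162, 148, 191 and 137 CPM without. Every line was lower without serum by a similar step, and the groups overlapped where WT2 and WT4 with serum lay just below WT3 without. Its log2 fold change was -0.41 ± 0.12 (SE, edgeR adjusted p = 0.0365). This call held in 4 of 12 fits with a library or line dropped (without the WT2 or WT4 serum library, the WT3 serum-free library or line WT3), and elsewhere the adjusted p reached 0.152. With the line as a block it was 1.96e-05. *HK1*, the constitutive hexokinase, stood at 158, 154, 166 and 182 CPM with serum and at 172, 150, 184 and 215 CPM without (log2 fold change 0.13 ± 0.11, adjusted p = 0.41).

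*SLC2A1*, the main glucose transporter of most tumor cells, stood at 504, 546, 480 and 383 CPM with serum and at 384, 441, 333 and 235 CPM without. It was lower in each of the 4 lines, while WT2 without serum was above WT4 with serum. The unblocked fit did not call it (log2 fold change -0.46 ± 0.19, edgeR adjusted p = 0.109), and the fit with the line as a block did (-0.48 ± 0.06, adjusted p = 2.58e-05). *SLC2A3*, another glucose transporter, stood at 35.2, 35.9, 42.1 and 27.6 CPM with serum and at 38.9, 36.2, 41.2 and 37.2 CPM without (0.12 ± 0.12, adjusted p = 0.477), and it was called higher with the GC correction of the blocked fit (0.19, adjusted p = 0.0204). *GPI*, which isomerizes glucose 6-phosphate, stood at 524 to 647 CPM with serum and 531 to 568 CPM without (log2 fold change -0.06 ± 0.07, adjusted p = 0.605).

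The phosphofructokinase subunits moved in opposite directions. *PFKL*, the liver-type subunit, stood at 54.1, 51.7, 62 and 80.2 CPM with serum and at 78.1, 77.7, 81.1 and 92.7 CPM without. All 4 lines were higher without serum, and only WT4 with serum reached the serum-free range. *PFKP*, the platelet-type subunit, stood at 154, 154, 153 and 179 CPM with serum and at 141, 139, 120 and 131 CPM without, and here the groups did not overlap. The muscle-type *PFKM* stood at 94.8, 88.6, 101 and 83.8 CPM with serum and at 84, 91.8, 106 and 88.7 CPM without (log2 fold change 0.01 ± 0.09, edgeR adjusted p = 0.943). The log2 fold changes of *PFKL* and *PFKP* were 0.41 ± 0.13 (adjusted p = 0.0474) and -0.27 ± 0.08 (0.0321). Both calls were near the threshold and each held in 2 of 12 fits with a library or line dropped, those without the WT4 serum library or line WT4 for *PFKL* and those without the WT4 serum library or the WT1 serum-free library for *PFKP*. The adjusted p otherwise reached 0.188 and 0.115. With the line as a block they were 1.20e-04 and 0.00278. *PFKL* is GC-rich (64.1%), and over all genes the log2 fold change rose with GC content (Spearman's rho 0.36, a description across 17425 genes, which are not replicates). After a GC correction of the blocked fit the log2 fold change of *PFKL* was 0.21 (adjusted p = 9.43e-04) and that of *PFKP* was -0.33 (2.00e-05).

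*PFKFB3* and *PFKFB4* encode the bifunctional enzymes that make and remove the allosteric activator of phosphofructokinase. *PFKFB3* stood at 89.1, 81.5, 108 and 132 CPM with serum and at 125, 99.8, 151 and 217 CPM without. *PFKFB4* stood at 24.1, 25.6, 32.5 and 60.5 CPM with serum and at 38.5, 34.9, 48.6 and 82.4 CPM without. Both were higher without serum in every line, but WT4 was the highest line in both media and the groups overlapped. Neither passed without the block (edgeR adjusted p = 0.156 and 0.355). With it, the log2 fold changes were 0.50 ± 0.07 (adjusted p = 2.70e-05) and 0.53 ± 0.06 (1.26e-05), and both remained called without each line in turn.

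In the later steps of glycolysis *PGAM1*, the phosphoglycerate mutase that makes the substrate of enolase, fell most. It stood at 591, 557, 616 and 622 CPM with serum and at 407, 404, 429 and 366 CPM without. The groups were far apart and WT4, the highest line with serum, was the lowest without. Its log2 fold change was -0.57 ± 0.07 (edgeR adjusted p = 0.00112), and the call held with any 1 library or line dropped. The 13 annotated pseudogenes of *PGAM1* together had 0.188% as many reads as the gene with serum and 0.477% without. The difference was -0.52 in WT3 and -0.76 in WT4 (log2), the lines whose serum libraries had few multiple alignments. *PGAM1* lies at chr10:97426191-97433444 (GRCh38.p14, RefSeq).

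*PGK1*, the first of the ATP-making steps, stood at 716, 681, 735 and 726 CPM with serum and at 616, 592, 641 and 614 CPM without. The groups did not overlap, and the step was small and even, between -0.20 and -0.24 (log2) in the 4 lines. Its log2 fold change was -0.21 ± 0.06 (edgeR adjusted p = 0.02). The call held in 5 of 12 fits with a library or line dropped (without the WT2 or WT4 serum library, the WT3 or WT4 serum-free library or line WT4) and the adjusted p otherwise reached 0.116. With the line as a block the adjusted p was 0.00202, and the call held without each line in turn (up to 0.0192). With the GC correction in the blocked fit the log2 fold change was -0.10 (adjusted p = 0.0653). *TPI1*, which interconverts the triose phosphates, stood at 699, 679, 699 and 817 CPM with serum and at 619, 620, 663 and 620 CPM without. Its groups did not overlap either, yet the unblocked fit missed the threshold (-0.20 ± 0.07, adjusted p = 0.0666) and the block passed it (0.0123). The GC correction of the blocked fit gave -0.31 (adjusted p = 1.63e-05).

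The other enzymes of this stretch passed neither the unblocked nor the blocked fit to all libraries. *GAPDH* stood at 2884 to 3229 CPM with serum and 2729 to 2949 CPM without (log2 fold change -0.08 ± 0.06, edgeR adjusted p = 0.375). Its GC content is 57.6%, and with the GC correction in the blocked fit it was called lower (-0.19 ± 0.04, adjusted p = 5.79e-04). *ENO1* stood at 3351 to 3877 CPM and 3432 to 4035 CPM (0.08 ± 0.07, 0.451). *PKM*, the pyruvate kinase gene, was at 2318 to 2942 CPM with serum and 2595 to 2915 CPM without (0.12 ± 0.08, 0.311). *ALDOA* stood at 1305 to 1723 CPM with serum and 1458 to 1542 CPM without (0.03 ± 0.08, 0.797). In the blocked fit without line WT4, *PKM* (0.17, adjusted p = 9.71e-05), *ENO1* (0.12, 0.00537) and *ALDOA* (0.11, 0.0109) were called higher. The minor isoenzyme genes *ALDOC* (6.45 to 9.65 CPM with serum, 6.39 to 8.88 CPM without) and *ENO2* (27 to 39.2 CPM and 28.4 to 37.7 CPM) gave 0.02 ± 0.16 and 0.09 ± 0.13.

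The fate of pyruvate involved more of the genes that fell. *LDHA*, whose enzyme favors the reduction of pyruvate to lactate, stood at 1066, 1085, 1087 and 1026 CPM with serum and at 803, 876, 804 and 828 CPM without. The 4 lines were close together in each medium and the groups were well apart. It fell by 0.36 ± 0.06 on the log2 scale (edgeR adjusted p = 0.00251), and the call held with any 1 library or line dropped. With the GC correction in the blocked fit it was -0.23 (adjusted p = 1.47e-04). *LDHA* lies at chr11:18394563-18408425 (GRCh38.p14, RefSeq).

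*LDHB*, the heart-type subunit gene, stood at 785, 721, 802 and 707 CPM with serum and at 669, 653, 688 and 632 CPM without. Every serum library was above every serum-free one, by a smaller step than for *LDHA*. The unblocked fit missed the threshold (log2 fold change -0.19 ± 0.06, edgeR adjusted p = 0.053), and the block passed it (0.00541), except without line WT1 (0.0505).

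*PDK1*, a kinase that switches off pyruvate dehydrogenase, was low and fell. It stood at 21.2, 22.5, 22.8 and 17.5 CPM with serum and at 16.3, 16, 14.2 and 15.3 CPM without. WT4 was lowest with serum and still above every serum-free library. The log2 fold change was -0.45 ± 0.10 (edgeR adjusted p = 0.0123), and the call was lost without line WT1, WT2 or WT3 (adjusted p up to 0.0862). With the line as a block the adjusted p was 8.22e-04, and the call held without each line in turn (up to 0.0129). With the GC correction in the blocked fit the log2 fold change was -0.26 (adjusted p = 0.00771). *PDK3*, a related kinase, gave -0.16 ± 0.11 (adjusted p = 0.303) at 12.1, 13.8, 14.9 and 14.2 CPM with serum and 11, 12.2, 12.6 and 13.5 CPM without.

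The lactate transporters diverged. *SLC16A1*, the transporter MCT1, stood at 310, 283, 304 and 227 CPM with serum and at 218, 215, 204 and 169 CPM without. The highest serum-free library lay just below WT4 with serum. Its log2 fold change was -0.48 ± 0.11 (edgeR adjusted p = 0.014), and the call was lost without line WT1, WT2 or WT3 (adjusted p up to 0.0829). With the line as a block the adjusted p was 7.09e-06, and the call held without each line in turn (up to 5.02e-04). *SLC16A3*, the exporter MCT4 that is typical of hypoxic cells, was scarce. It stood at 7.92, 10.9, 8.83 and 5.04 CPM with serum and at 12.5, 15.8, 12.2 and 6.09 CPM without. All 4 lines were higher without serum, but WT4 was low in both media. The unblocked fit did not call it (0.51 ± 0.31, adjusted p = 0.26) and the block did (0.50 ± 0.10, 8.99e-04), with 0.29 (0.0125) after the GC correction. *SLC16A3* shares 482 exon bases with *CSNK1D* on the opposite strand and *SLC16A1* shares 231 with *SLC16A1-AS1*. The strand setting of the counting is not given, so reads there cannot be assigned with certainty.

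**Figure D3:**
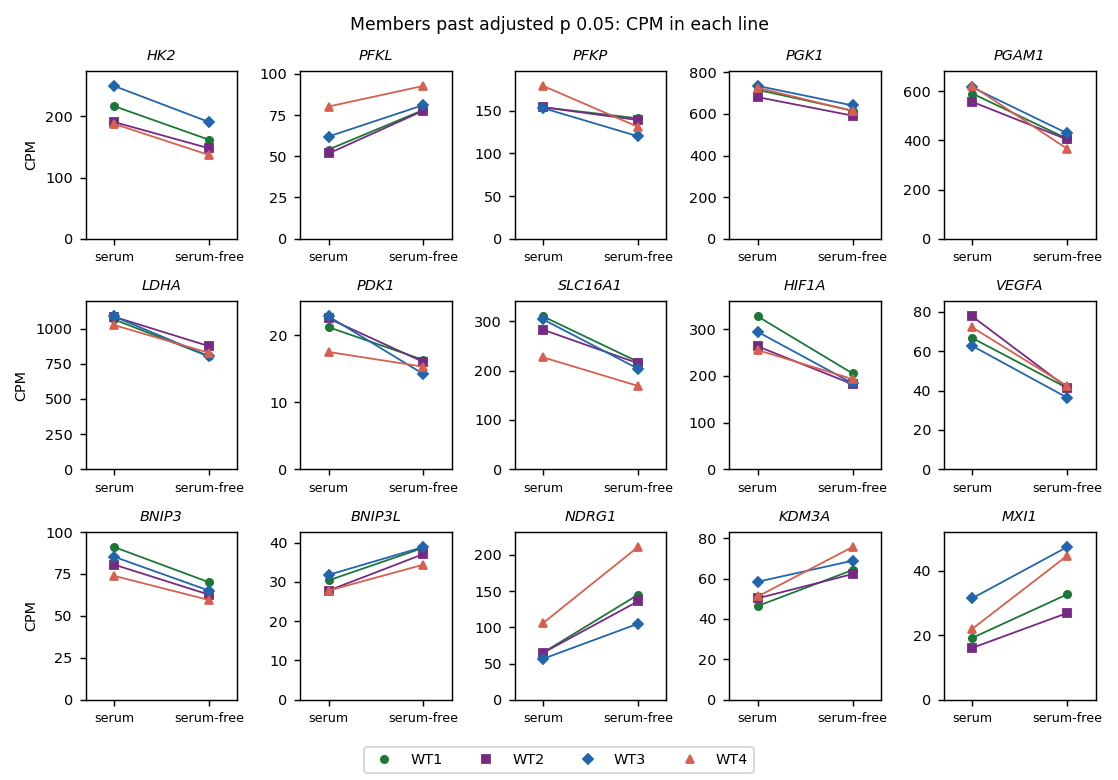
CPM with and without serum for the 15 members past the adjusted p of 0.05, 1 line per clone, axes from 0. *LDHA*, *PGAM1* and *VEGFA* fall together in all 4 lines, whereas *NDRG1* and *MXI1* rise in all 4 from levels that differ between lines.

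Shares of summed RPKM within a reaction describe how the balance of isoenzyme transcripts moved, with no test. *PFKL* made up 15.5%, 15.3%, 17.2% and 20.6% of the 3 phosphofructokinase transcripts with serum and 22.7%, 22.2%, 23.2% and 26.3% without, while *PFKP* went from 51.1% ± 1.93 to 43.7% ± 3.41 (mean ± SD, n = 4). Neither range overlapped. The *LDHA* share of *LDHA* plus *LDHB* was 41.2% ± 1.26 with serum and 38.3% ± 1.6 without. The *HK2* share of both hexokinases was 59.7% ± 3.86 and 50.7% ± 5.54, lower without serum in each line. Which hexokinase was the more abundant depended on the length used: with the longest transcript in place of merged exons *HK2* made up 47.6% with serum. *SLC16A3* made up 1.94% ± 0.463 of both lactate transporters with serum and 3.75% ± 0.989 without, so *SLC16A1* remained the major transcript throughout.

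**Figure D4:**
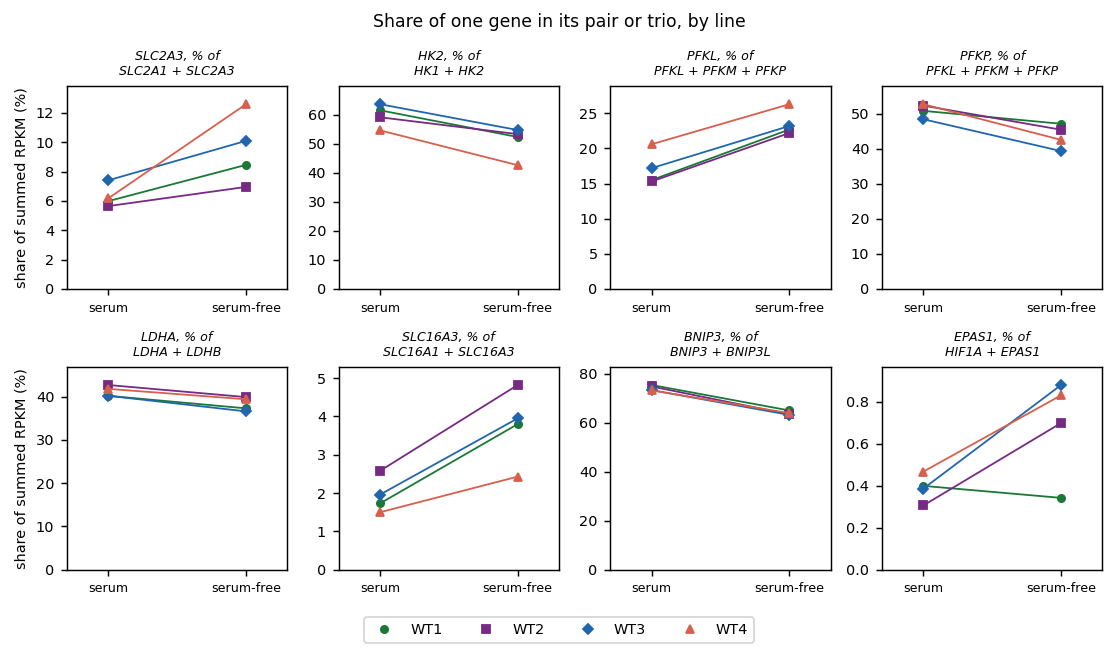
Share (%) of 1 gene in the summed RPKM of its pair or trio, with and without serum, for each line, axes from 0. The *PFKL* and *SLC16A3* shares climb in all 4 lines, the *HK2*, *PFKP*, *LDHA* and *BNIP3* shares drop in all 4, and *EPAS1* stays below 1% of *HIF1A* plus *EPAS1*.

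Among the regulators, the transcript of *HIF1A* fell to 0.671 of its level with serum. It stood at 327, 263, 294 and 255 CPM with serum and at 205, 182, 184 and 193 CPM without. The groups were separate, with the smallest step in WT4 (-0.40, log2) and the largest in WT3 (-0.68). The difference was -0.58 ± 0.09 on the log2 scale (edgeR adjusted p = 0.00242), and the call held with any 1 library or line dropped. *HIF1A* is AT-rich (36.4% GC), and the GC correction of the blocked fit gave -0.33 (adjusted p = 3.39e-06). It shares 133 and 299 exon bases with the antisense genes *HIF1A-AS1* and *HIF1A-AS3*. *HIF1A* lies at chr14:61695513-61748258 (GRCh38.p14, RefSeq). *EPAS1*, the other alpha subunit, stood at 1.86, 1.14, 1.61 and 1.69 CPM with serum and at 0.996, 1.81, 2.31 and 2.29 CPM without, and *HIF1A* made up over 99% of their summed RPKM. WT1 went down and the other lines up (0.24 ± 0.29, adjusted p = 0.581).

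The main oxygen sensor *EGLN1*, which hydroxylates the alpha subunits, varied little, at 119, 114, 126 and 123 CPM with serum and at 115, 118, 117 and 120 CPM without (log2 fold change -0.03 ± 0.06, edgeR adjusted p = 0.702). *EGLN3*, a sensor that is itself hypoxia-inducible, was at 0.164 to 1.14 CPM with serum and 0.213 to 1.05 CPM without, too few reads for a stable direction (0.17 ± 0.66, adjusted p = 0.88).

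*VEGFA*, the angiogenic growth factor and a textbook target of hypoxia, fell most among the members that passed. It stood at 66.7, 77.7, 62.7 and 72.1 CPM with serum and at 41.3, 41.5, 36.4 and 42.3 CPM without. The 4 serum-free values were tightly grouped and lay far below the serum values. This was a fall to 0.578 of the level with serum (log2 fold change -0.79 ± 0.08, edgeR adjusted p = 9.14e-04), called with any 1 library or line dropped. *VEGFA* lies at chr6:43770211-43786487 (GRCh38.p14, RefSeq). *ADM*, which encodes the vasodilator adrenomedullin, was scarcer and less even: 17.6, 23.8, 16.5 and 16.3 CPM with serum and 12.5, 22.7, 9.07 and 7.18 CPM without. WT2 was highest in both media and hardly differed between them, and *ADM* passed with the block (-0.62 ± 0.15, adjusted p = 0.0062) but not in the unblocked fit to all libraries (-0.53 ± 0.34, 0.298). Without the block it passed in 2 of 12 fits with a library or line dropped. The log2 fold change was then -0.96 without the WT2 serum-free library (0.0174) and -0.81 without line WT2 (0.0386).

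The mitophagy receptor genes *BNIP3* and *BNIP3L*, paralogs whose products bring mitochondria to autophagosomes, moved in opposite directions. *BNIP3* stood at 91.1, 80.6, 85.3 and 73.9 CPM with serum and at 70.1, 62.7, 65.1 and 59.5 CPM without. *BNIP3L* stood at 30.4, 27.8, 31.8 and 27.8 CPM with serum and at 38.7, 37.1, 38.9 and 34.4 CPM without. Neither pair of groups overlapped, and the 4 lines moved by similar steps. The log2 fold change of *BNIP3* was -0.36 ± 0.08 (edgeR adjusted p = 0.0113, lost without line WT2 or WT3, up to 0.0672) and that of *BNIP3L* was 0.34 ± 0.08 (0.0114, lost without line WT1, WT2 or WT3, up to 0.084). With the line as a block the adjusted p was 9.46e-05 for *BNIP3* and 4.85e-04 for *BNIP3L*. Both remained called in the blocked fit without each line in turn. With the GC correction of the blocked fit *BNIP3L* gave 0.56 (1.25e-06). The *BNIP3* share of their summed RPKM was 74.2% ± 1.12 with serum and 63.9% ± 0.806 without. Reads on the 44 *BNIP3* pseudogenes came to 5.72% of those on the gene with serum and 6.71% without, so part of the reads of these copies may be split. *BNIP3L* shares 330 exon bases with *PNMA2* on the opposite strand.

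*NDRG1*, a stress-responsive gene that hypoxia, iron loss and growth arrest are known to induce, rose most. It stood at 65.2, 64.9, 56.6 and 106 CPM with serum and at 145, 136, 105 and 211 CPM without. Each line was higher without serum, by 0.90 to 1.15 on the log2 scale, and the groups met only in WT4 with serum and WT3 without. It rose 2.05-fold (log2 fold change 1.03 ± 0.26, edgeR adjusted p = 0.0221). The call held in 5 of 12 fits with a library or line dropped (without the WT4 serum library, the WT2, WT3 or WT4 serum-free library or line WT4) and the adjusted p otherwise reached 0.13. With the line as a block the SE was 0.06 and the adjusted p 1.97e-08.

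*MXI1*, a MAX partner that opposes MYC, stood at 19.2, 16.1, 31.5 and 22 CPM with serum and at 32.7, 26.9, 47.4 and 44.7 CPM without. All 4 lines were higher without serum, and WT3 with serum lay between WT2 and WT1 without it. The log2 fold change was 0.77 ± 0.25 (edgeR adjusted p = 0.0496), at the edge of the threshold: the call held in 3 of 12 fits (without the WT3 serum library, the WT2 serum-free library or line WT3) and the adjusted p otherwise reached 0.196. With the block it was 2.22e-06. *KDM3A*, a histone demethylase, stood at 46.4, 50.2, 58.4 and 51.1 CPM with serum and at 64.2, 62.2, 68.8 and 75.6 CPM without. Its groups did not overlap (0.39 ± 0.09, adjusted p = 0.012), and the call was lost only without line WT1 (0.0658). With the block the adjusted p was 2.04e-04, and the call held without each line in turn.

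*P4HA1*, a collagen prolyl hydroxylase subunit, stood at 36.8, 35.5, 37 and 32.9 CPM with serum and at 29.4, 31.9, 32.9 and 30.2 CPM without. The step was small (log2 fold change -0.19 ± 0.07, edgeR adjusted p = 0.0762), and the call with the block (0.0254) was lost without line WT1, WT2 or WT3 (up to 0.168). It was also lost with the GC correction of the blocked fit, which gave -0.04 ± 0.05 (adjusted p = 0.623). *P4HA2*, its paralog, gave -0.03 ± 0.18 at 15.3, 17.2, 14.8 and 24.8 CPM with serum and 16.9, 17.6, 14.3 and 21.8 CPM without, with WT4 highest in both media. *ANKRD37* (3.1 to 5.21 CPM with serum) and the lipid droplet gene *HILPDA* (6.33 to 8.56 CPM) gave -0.18 ± 0.19 and -0.16 ± 0.15, with lines on both sides of 0. The carbonic anhydrase genes *CA9* and *CA12*, of which *CA9* is a common marker of hypoxic tumor, were at or below 0.504 and 0.282 CPM in every library and below the filter.

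The lines themselves differed in many members. In a test of any difference between lines, 14 of the 40 members tested passed (edgeR F test, adjusted p below 0.05), 9 in glycolysis and 5 of the others, against 22.9% of all genes. The strongest were *PFKFB4* (adjusted p = 2.88e-07), *NDRG1* (4.52e-06), *PFKFB3* (2.16e-05), *MXI1* (9.94e-05), *SLC16A3* (1.08e-04) and *SLC2A1* (2.43e-04). With serum, the highest line exceeded the lowest 2.51-fold in *PFKFB4*, 2.17-fold in *SLC16A3* and 1.87-fold in *NDRG1*. In *PGAM1*, *LDHA* and *PGK1* it did so only 1.12-fold, 1.06-fold and 1.08-fold, and these did not pass the test between lines (0.649, 0.757 and 0.609). WT4 was the highest line for *PFKFB4*, *PFKFB3* and *NDRG1* and the lowest for *SLC16A3* and *SLC2A1*, in both media.

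Further genes of these pathways also moved both ways. Of 28 other genes of glycolysis and pyruvate metabolism tested, 4 fell (14.3%) and 7 rose (25%), beside the 14.0% and 11.1% of all genes, and with the line as a block 7 were lower (25%) and 9 higher (32.1%), beside 22.4% and 23.2%. Of the unblocked calls, *HKDC1* and *PDHA1* held in 2 of 12 fits with a library or line dropped, *PDK2* and *PCK2* in 3 and *TIGAR* in 4. *ENO3*, *LDHD* and *SLC2A6* held in 7 each. *ADPGK*, the ADP-dependent glucokinase, fell (log2 fold change -0.39 ± 0.06, edgeR adjusted p = 0.00213), from 68.1 ± 0.979 to 52 ± 1.86 CPM, and held in all 12. *SLC16A7*, the transporter MCT2, fell as *SLC16A1* did (-0.68 ± 0.15, 0.012), although the call was lost without line WT1, WT2 or WT3 (up to 0.0787). With the block the adjusted p was 2.28e-06. *SLC2A10*, a little-expressed member of the glucose transporter family, rose (2.34 ± 0.52, 0.0108), a call lost without line WT3 (0.0783). With the block its adjusted p was 2.76e-04.

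Of 16 oxygen-sensing genes, 4 fell (25%) and 4 rose (25%), beside 14.0% and 11.1% of all genes, and with the block 4 were lower (25%) and 6 higher (37.5%), beside 22.4% and 23.2%. Of the 8 unblocked calls, *EP300* held in 2 of 12 fits with a library or line dropped, *OS9* in 3, *CUL2* and *CITED2* in 5 and *ELOC* and *SIAH2* in all 12. *ELOC*, the elongin C subunit of the VHL ligase, fell (log2 fold change -0.54 ± 0.07, edgeR adjusted p = 0.00116), as did *SIAH2*, a ligase for EGLN proteins (-0.37 ± 0.07, 0.00568). *USP20*, a deubiquitinase, rose (0.59 ± 0.13, 0.0122), a call lost without line WT1, WT2 or WT3 (up to 0.0876). With the block its adjusted p was 9.32e-06. Of 31 further hypoxia-inducible genes, 5 fell (16.1%) and 6 rose (19.4%), and with the block 10 were lower (32.3%) and 8 higher (25.8%), beside the same shares of all genes. *AK4*, a mitochondrial adenylate kinase, fell (-0.77 ± 0.17, 0.012, lost without line WT3 or WT4, up to 0.0706, and 2.53e-07 with the block). The transferrin receptor *TFRC* fell as well (-0.52 ± 0.09, 0.00317). *INHA*, the inhibin alpha gene, rose (1.72 ± 0.37, 0.00953) at a low level, from 0.45 ± 0.147 to 1.49 ± 0.654 CPM.

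Of 8 pentose phosphate genes, *RPE* (log2 fold change -0.54 ± 0.10, edgeR adjusted p = 0.00605) and *RPIA* (-0.42 ± 0.12, 0.0251) fell (25%, beside 14.0% of all genes). *RPIA* lost its call without the WT1, WT2 or WT3 serum library or line WT1, WT2 or WT3 (up to 0.0917), and its adjusted p with the block was 1.71e-04. With the block 2 were lower (25%) and 4 higher (50%), beside 22.4% and 23.2% of all genes. *H6PD*, the glucose 6-phosphate dehydrogenase of the endoplasmic reticulum, rose from 45.4 ± 6.75 to 83.4 ± 6.53 CPM (log2 fold change 0.88 ± 0.11, edgeR adjusted p = 0.00116). Of 11 glycogen genes, 3 fell (27.3%) and 1, *PGM1*, rose (9.09%, log2 fold change 0.40 ± 0.09, adjusted p = 0.00913, lost without line WT1, WT2 or WT3, up to 0.0568, and 1.02e-04 with the block), beside 14.0% and 11.1% of all genes. With the block 4 were lower (36.4%) and 3 higher (27.3%), beside 22.4% and 23.2%. Of the 4 tested genes of the glucose-sensing MondoA group, *MLX*, the shared partner, fell (-0.40 ± 0.06, 0.00282), and the thioredoxin-interacting gene *TXNIP* passed with the block (log2 fold change 0.51, 0.039) but not without it (0.48 ± 0.24, 0.175).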

How the data were processed

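RNA from 8 A375 cultures, 4 clonal lines with and without serum, was depleted of ribosomal RNA, and paired-end libraries were made with NEBNext Ultra. The authors deposited raw read counts per Ensembl gene for each library. The submitters' processing notes name cutadapt, TopHat2 2.0.11, HTSeq and GRCh38, whereas the methods of the study name hg19, so no coordinate was taken from the tables. Neither the gene annotation used nor whether counting was stranded is given in the sources used here. The counts sum to 29759279 to 73341551 per library, and 8.23% to 11.5% of the tallied reads were ambiguous between genes. Replicates are clonal lines. Without the line as a block, p-values set the serum difference against the spread between these lines. With the block, they set it against the spread of that difference among the lines.

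Symbols came from a table of gene names, which named 40895 of the 58051 identifiers. Genes with low counts were removed with filterByExpr, libraries were scaled by TMM, and serum-free was tested against serum with the quasi-likelihood test of edgeR 4.0.16 (R 4.3.3), with Benjamini-Hochberg adjustment over 17671 genes and a threshold of 0.05. The study's own FPKM test could not be run on counts. The lines pair the libraries: deviations from the group means correlated at 0.403 to 0.604 between libraries of a line and at most 0.126 between lines. A fit with the line as a block is therefore given where it changes a call and beside many other calls. RPKM used merged exon lengths of GENCODE, lifted to GRCh37, and differences within a line used log2 CPM with a prior count of 2. The GC correction took per-library offsets from a smooth fit on gene GC content. Alternatives were DESeq2 1.42.0, limma 3.58.1 (voom), other scalings and filters, coding genes alone and each library or line left out. Only the edgeR fits with and without the block were tested on simulated data, which held no GC trend and no line apart from the others. Gene positions and promoter windows are from RefSeq on GRCh38.p14 and were matched by symbol. Values in all libraries are given for members past the threshold in either fit, for both hypoxia-inducible factor genes and for the isoenzyme partners of those members, other tested members by range or in full, and up to 3 genes in each direction of each further list. The members and lists were chosen with earlier results of these data known.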

Additional observations from a re-analysis of the deposited data

Results flagged for a closer look

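A search of the 42 members in each medium for a line far from the other 3 (Dixon's ratio, 84 sets of 4 values, of which chance alone gives about 4.2) found 5. *PFKP* with serum was 179 CPM in WT4 and 153 to 154 CPM in the other lines. *TPI1* with serum was 817 CPM in WT4 and 679 to 699 CPM elsewhere, and without serum it was 663 CPM in WT3 and 619 to 620 CPM elsewhere. *ADM* with serum was 23.8 CPM in WT2 and 16.3 to 17.6 CPM elsewhere. *CA9* with serum was 0.504 CPM in WT1 and 0.117 to 0.141 CPM elsewhere.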

How the results depend on the processing

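With 4 lines, small folds are limited by the spread between lines, and members near the threshold depended on the fit. The 4434 genes called over the whole table became 8067 with the line as a replicate block, 8207 with the block and the GC correction, 1589 to 6128 with a library or line dropped and 6185 to 8938 with the block and a line dropped, an alternative chosen after seeing the data. DESeq2 called 5314, limma 4699, and the fit without a filter 3904. The 7 glycolysis genes that were lower became 10 with the block, with the block and the GC correction and with DESeq2, 4 with upper-quartile scaling, 2 to 8 with a library or line dropped and 9 to 10 with the block and a line dropped. Upper-quartile scaling, which moved the median of all genes to 0.098, ended the calls of *HK2* (adjusted p = 0.0608), *PFKP* (0.0847) and *PGK1* (0.0644). Without a filter *PGK1* was lost as well (0.0644), which left 6 lower. The 1 higher glycolysis gene became 4 with the block, 5 with the block and the GC correction, 0 with RLE scaling (*PFKL*, 0.0541), 0 to 3 with a library or line dropped and 4 to 7 with the block and a line dropped (7 without WT4). The 3 other members that were lower became 5 with the block, 2 to 4 with a library or line dropped and 4 to 5 with the block and a line dropped. The 4 that were higher became 2 with no filter (*NDRG1*, 0.0805, and *MXI1*, 0.157, lost) and 0 to 4 with a library or line dropped. *MXI1* was also lost with RLE scaling (0.0501). No member called in the unblocked fit to all libraries changed direction in any fit run. Of those not called in it, the log2 fold change of *GPI* turned to 0.01 with upper-quartile scaling and ranged from -0.10 to 0.01 with a library or line dropped. *PFKM* (-0.01), *ALDOA* (-0.02), *ALDOC* (-0.06), *EGLN1* (0.02) and *P4HA2* (0.06) turned with the block and the GC correction, *EGLN1* (0.03) and *P4HA2* (0.04) with upper-quartile scaling and *P4HA2* (0.03) with limma. With a library or line dropped *PFKM* ranged from -0.07 to 0.07, *ALDOA* from -0.02 to 0.12, *ALDOC* from -0.06 to 0.14, *EGLN3* from -0.35 to 1.09 and *P4HA2* from -0.15 to 0.16. The causes were not tested. The 14 members that differed between lines became 13 with a filter of 10 counts in every library, 14 with limma and 15 without line WT4. The 33 members above the median level became 34 with the longest transcript as length and 33 with TPM.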
